A study of Mus musculus with 6 samples.

Results

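The 10 genes described here encode the granins and the enzymes that turn neuropeptide precursors into active peptides: Chga, Chgb, Scg2, Scg3, Scg5, Vgf, Pcsk1, Pcsk2, Cpe and Pam. They were taken by symbol from 41388 gene identifiers, and each of the 10 symbols matched 1 identifier. RNA was sequenced from cells of dorsal root ganglia, the clusters of sensory neuron cell bodies beside the spinal cord, taken from C57BL/6 mouse embryos at 18.5 dpc (days post coitum). Every embryo carried a Ret-EGFP reporter, and EGFP-positive cells of spinal levels T11 to S1 were collected by flow cytometry with 7-AAD as a viability dye. The genotype label gives the reporter as the transgene Tg(Ret-EGFP)SJ, whereas the series text places EGFP in the Ret locus of heterozygotes, so whether the cells kept 1 or 2 intact Ret alleles is not settled here. No group without the reporter is part of the data. The 6 libraries were 3 from female embryos, named A, B and C, and 3 from male embryos, named A, C and D. Female B and female C each came from 1 embryo with 20 ganglia. Female A and male A each pooled 60 ganglia of 3 embryos, and male C and male D each pooled 40 ganglia of 2 embryos. The embryos of female A and of male C each came from 2 mothers. Libraries came from different embryos, and p-values measure the spread between such libraries.

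Libraries held between 17861500 and 29330101 counts, so that 3 counts, the level a count of 0 allows, equal 0.102 to 0.168 CPM, a count scaled by the library total. This limit covers counting error only, because the amplified reads carry no molecular identifiers. Ret averaged 181 ± 27.1 CPM (SD, n = 6). All 13 sensory neuron markers averaged at least 1 CPM, with the highest levels in Stmn2, a tubulin regulator, and Tubb3, neuronal beta tubulin. Of 7 macrophage markers 6 averaged under 1 CPM. Of 9 markers of sympathetic neurons and adrenal chromaffin cells, 6 averaged at least 1 CPM and the sum over all 9 was 63.7 to 178 CPM per library, most of it Slc18a2 at 58.9 CPM and Th at 49.5 CPM. Phox2a, Hand2 and Pnmt of that list averaged 0.120, 0.218 and 0.0396 CPM, and Dbh, which makes noradrenaline, reached 18.3 CPM in male A, against 0.111 to 4.404 CPM in the other libraries. Male A and male C stood apart from the rest. Male A held 4583 CPM over 12 markers of satellite glia and Schwann cells, against 2026 to 2478 CPM in the other libraries, and 2894 CPM over 8 fibroblast and meningeal markers, against 577 to 678 CPM. Not every marker was raised, as the glial Fabp7 (337 CPM) and S100b (54.2 CPM) were lowest in male A. The glial Cdh19 (18.8 CPM) and the fibroblast marker Dcn (288 CPM) lay within the range of the other libraries. All other markers of both lists were highest in male A. Male C held 58.9 CPM of Xist, the RNA of the inactive X chromosome, beside 57.1 CPM of the Y-linked Ddx3y, whereas Xist was at 0.418 and 0.575 CPM in the other male libraries. Each comparison is therefore also given without male A and male C.

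Neuropeptides are made as long precursors that are packed into dense-core vesicles at the trans-Golgi network and cut there on the way to release. Granins are acidic proteins that aggregate in that compartment, help to form the vesicles, and are themselves precursors of peptides. Prohormone convertases cut precursors after pairs of basic residues, a carboxypeptidase trims the basic residues left behind, and an amidating enzyme converts a terminal glycine into the amide on which many peptides depend for activity. Peptidergic nociceptors of the dorsal root ganglion use this route for CGRP and substance P, both of which are amidated.

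The promoters of these genes were read first, as a property on which their choice did not rest. RefSeq promoters on GRCm38.p6 were at hand for 8 of the 10 genes, and Vgf and Cpe had no entry. The cyclic AMP response element (CRE), TGACGTCA, the site bound by the transcription factor CREB, reads the same on both strands. It lay within 250 bases before the RefSeq start of Scg2, Chgb and Pcsk1. These are 3 of the 8 promoters, and 508 of all 32851 promoters in the table (1.55%) hold the same letters in a window of that length. The shorter CRE core, TGACG or CGTCA on the other strand, was present in 7 of the 8, Pam being the exception, against 17.8% of all promoters. In Scg2, Chgb and Pcsk1 the core overlaps the full element. Neither the AP-1 motif TGANTCA nor the TATA motif TATAAA was found on either strand in any of the 8 windows, against 6.75% and 12.4% of all promoters. At such shares, absence from 8 windows does not set these genes apart. Only the exact letters were searched, so other forms of either motif were not counted. The last 110 bases before the start are shown for the 3 promoters with the full CRE, for Chga, whose core is followed by different letters, and for Pam, which has none of the 4 motifs. Capitals mark the CRE or its core, and sequences run 5′ to 3′ on the gene's strand.
Scg2, chr1:79440027-79440136, minus strand: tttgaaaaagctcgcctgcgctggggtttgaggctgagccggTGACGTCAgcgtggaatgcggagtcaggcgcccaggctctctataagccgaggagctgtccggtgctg
Chgb, chr2:132781532-132781641, plus strand: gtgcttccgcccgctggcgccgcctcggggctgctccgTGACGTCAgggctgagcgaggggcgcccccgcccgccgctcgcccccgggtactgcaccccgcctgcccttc
Pcsk1, chr13:75089747-75089856, plus strand: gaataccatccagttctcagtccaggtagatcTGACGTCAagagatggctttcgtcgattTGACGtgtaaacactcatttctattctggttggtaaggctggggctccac
Chga, chr12:102554831-102554940, plus strand: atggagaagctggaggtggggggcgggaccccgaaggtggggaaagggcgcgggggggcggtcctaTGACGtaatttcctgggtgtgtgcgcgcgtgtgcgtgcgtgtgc
Pam, chr1:98095647-98095756, minus strand: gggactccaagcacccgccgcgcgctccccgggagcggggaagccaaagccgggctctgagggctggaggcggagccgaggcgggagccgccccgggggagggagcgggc
Counted back from the base before the start as −1, the full CRE spans −68 to −61 in Scg2, −72 to −65 in Chgb and −78 to −71 in Pcsk1, which has a further core at −50 to −46. The core spans −44 to −40 in Chga, −30 to −26 in Scg3, −34 to −30 in Pcsk2 and −175 to −171 in Scg5. The RefSeq start lies 364 bases inside the deposited gene of Chgb and 94 bases inside that of Scg2, so these windows lie partly or wholly downstream of the deposited start. The full CRE of Chgb and that of Scg2 thus lie inside the deposited gene. The starts of Pcsk1 and Scg5 lie 31 and 30 bases inside, and their motifs lie before the deposited start. Those of Chga, Scg3 and Pcsk2 lie at −28, −60 and −23 bases relative to the deposited start, so their windows end before it. Promoter composition varied widely, with 82.4% G and C in Pcsk2 and 46.8% in Pcsk1, against a median of 52.4% over all promoters. These matches are letters in a window, and binding was not measured.

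Levels of different genes are compared as RPKM, the TMM-scaled CPM per kilobase of the exon length in the files, and were ranked among 25811 genes with at least 1 count. Together the 10 genes took 0.243% to 0.275% of the counts of a library. Their summed level was 1059.5 ± 74.3 RPKM (SD, n = 6), and it lay between 971 and 1180 RPKM in every library. Cpe, the carboxypeptidase, alone contributed 37.9 ± 2.53% of that sum, and Scg5, Scg2 and Scg3 followed with 17.9%, 15.7% and 13.9%. In bulk RNA, a level can be set by how many cells express a gene or by how much each cell holds, and the 2 cannot be told apart.

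**Figure D1:**
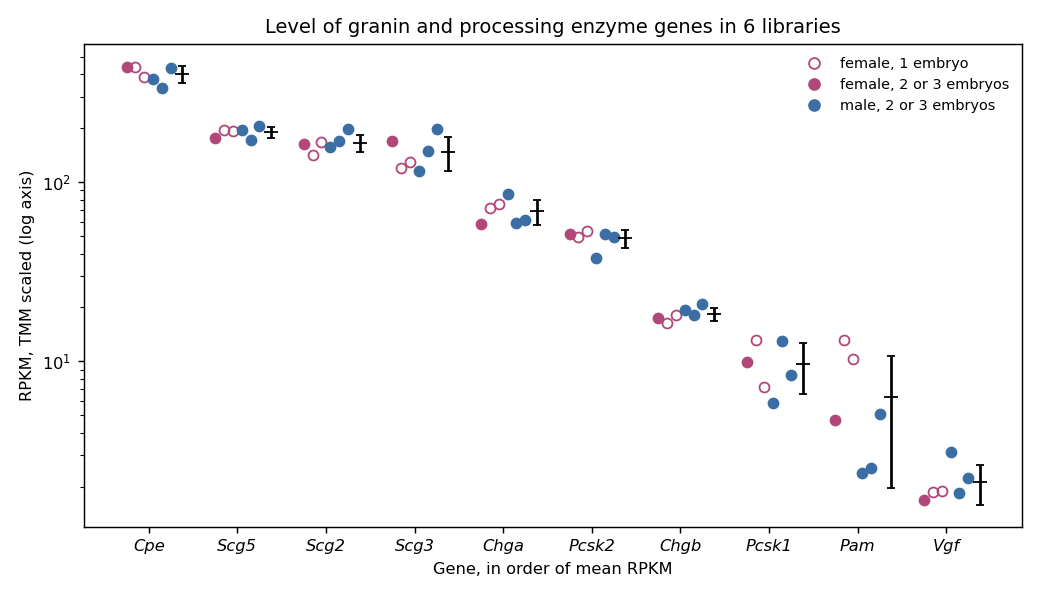
Level of each gene as TMM-scaled RPKM on a log axis, with 1 circle per library in the order female A, B and C and male A, C and D, open circles for the 2 libraries of 1 embryo each, and mean ± SD over 6 libraries at the right of each gene. Cpe lies at 402 RPKM and Vgf at 2.11 RPKM, and the 6 circles of Pam are the most widely spread.

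Among the granins, Scg2 and Scg3 were the most abundant per length, Chga was intermediate, and Chgb and Vgf were low. Scg2 (ENSMUSG00000050711, GRCm38 chromosome 1, 79434669 to 79440120, minus strand) encodes secretogranin II, the precursor of secretoneurin. Its levels were 163, 143 and 167 RPKM in female A, B and C and 158, 169 and 197 RPKM in male A, C and D. The mean of 166 ± 17.9 RPKM (SD, n = 6) ranked it at 353, in the top 1.37% of genes. Male D was the highest library and female B the lowest, and the sexes overlapped. Scg3 (ENSMUSG00000032181, chromosome 9, 75643264 to 75683996, minus strand) encodes secretogranin III, which binds cholesterol-rich vesicle membrane and chromogranin A. It measured 171, 120.3 and 130.5 RPKM in the 3 female libraries and 116, 150.2 and 197 RPKM in the 3 male libraries, with a mean of 147 ± 31.9 RPKM and a rank of 411. Female A and male D were high, and male A and female B were low, so that each sex held high and low libraries.

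Chga (ENSMUSG00000021194, chromosome 12, 102554969 to 102565027, plus strand) encodes chromogranin A, the best known granin of endocrine cells. Its levels were 58.7, 72.0 and 75.8 RPKM in female A, B and C and 85.9, 59.4 and 61.5 RPKM in male A, C and D. The mean was 68.9 ± 10.9 RPKM (SD, n = 6) at rank 964, and male A, the library with the highest summed glial and fibroblast markers, was the highest. Whether the RNA of such cells has a part in the level was not tested. Chgb (ENSMUSG00000027350, chromosome 2, 132781278 to 132795079, plus strand) encodes chromogranin B. It stood at 17.5, 16.3 and 18.1 RPKM in the female libraries and at 19.4, 18.2 and 20.8 RPKM in the male libraries, with a mean of 18.4 ± 1.58 RPKM at rank 2980. Within each library Chgb was a fraction of Chga, with a ratio between 0.226 and 0.339 and a geometric mean of 0.269. Every female value of Chgb was below every male value, although the highest female value, 18.1 RPKM in female C, and the lowest male value, 18.2 RPKM in male C, nearly met. Vgf (ENSMUSG00000037428, chromosome 5, 137026392 to 137033351, plus strand), which encodes a precursor of several peptides, was the least abundant of the 10. Its 814 counts over the 6 libraries gave 1.69, 1.86 and 1.90 RPKM in the female libraries and 3.13, 1.85 and 2.24 RPKM in the male libraries. The mean was 2.11 ± 0.530 RPKM at rank 9615, and male A was again the highest library.

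The convertase chaperone Scg5 was among the most abundant of the 10 and the convertases themselves were lower. Scg5 (ENSMUSG00000023236, chromosome 2, 113776362 to 113829121, minus strand) encodes a small secretory protein that binds PCSK2, is needed for it to become active and can inhibit it. It measured 176, 197 and 194 RPKM in female A, B and C and 194, 172 and 206 RPKM in male A, C and D. The mean of 189.8 ± 13.1 RPKM (SD, n = 6) ranked it at 296, and the 6 libraries lay within 1.20-fold of one another, the narrowest range of the 10 genes. Pcsk2 (ENSMUSG00000027419, chromosome 2, 143546156 to 143816285, plus strand) encodes the convertase that acts mainly late, in mature vesicles. It stood at 51.6, 49.5 and 53.2 RPKM in the female libraries and at 37.6, 51.2 and 49.5 RPKM in the male libraries, with a mean of 48.8 ± 5.64 RPKM at rank 1315. Male A lies below the other libraries, which are close together. Pcsk1 (ENSMUSG00000021587, chromosome 13, 75089826 to 75132498, plus strand) encodes the convertase that acts earlier in the route. Its levels were 9.91, 13.2 and 7.20 RPKM in the female libraries and 5.88, 13.1 and 8.38 RPKM in the male libraries, with a mean of 9.61 ± 3.04 RPKM at rank 4723. Female B and male C were high, and male A and female C were low, so neither sex nor pooling ordered them. Pcsk2 exceeded Pcsk1 in every library, by 3.75-fold to 7.40-fold with a geometric mean of 5.27-fold. Scg5 exceeded Pcsk2, the enzyme its product binds, by 3.35-fold to 5.17-fold, with the highest ratio in male A.

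Of the enzymes that finish the peptide, the carboxypeptidase was the most abundant of the 10 genes and the amidating enzyme varied most between libraries. Cpe (ENSMUSG00000037852, chromosome 8, 64592558 to 64693040, minus strand) encodes carboxypeptidase E, which removes the basic residues that the convertases leave. It reached 442, 441 and 387 RPKM in female A, B and C and 377, 334 and 432 RPKM in male A, C and D. The mean of 402 ± 43.5 RPKM (SD, n = 6) ranked it at 102 of 25811 genes, and its rank stayed between 76 and 129 in the 6 libraries. Male C was the lowest library, and the sexes overlapped. Pam (ENSMUSG00000026335, chromosome 1, 97795114 to 98095646, minus strand) encodes the copper- and ascorbate-dependent monooxygenase that amidates peptides. It measured 4.70, 13.2 and 10.3 RPKM in the female libraries and 2.39, 2.54 and 5.09 RPKM in the male libraries. The mean was 6.36 ± 4.39 RPKM at rank 6001, and the rank ran from 3850 to 9095 between libraries. Female B and C, each from 1 embryo, were high, female A and male D were intermediate, and male A and male C were low. The ratio of Cpe to Pam was 33.4 in female B and 158 in male A, its extremes, with a geometric mean of 77.0.

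To test which neighbours in this order differ beyond the spread between libraries, the log2 difference of each pair was taken within each library and tested with a two-sided exact sign-flip permutation test. With 6 libraries the smallest p is 0.03125, and p-values were adjusted over the 9 neighbouring pairs. On each scale, neighbours were set by the mean level in the same 6 libraries. The adjusted p of a pair at the smallest p depends on how many pairs reach it. The tests therefore describe how regular the order was across libraries and are no independent support for it. Of the 9 pairs, 6 had the same order in 6 of 6 libraries, with an adjusted p of 0.0469 by that exact test. Cpe was 2.11-fold above Scg5 (log2 difference 1.08 ± 0.15, SD, n = 6), and Scg5 was 1.15-fold above Scg2. Scg3 was 2.12-fold above Chga, Chga was 1.41-fold above Pcsk2, Pcsk2 was 2.65-fold above Chgb, and Chgb was 1.99-fold above Pcsk1. For the other 3 pairs the order was not shown on this scale. Scg2 was above Scg3 in 4 of 6 libraries (1.14-fold, exact test, adjusted p = 0.125), Pcsk1 above Pam in 5 of 6 (1.77-fold, exact test, adjusted p = 0.105), and Pam above Vgf in 5 of 6 (2.51-fold, exact test, adjusted p = 0.0804).

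These orders rest on the lengths in the files. For Pam the deposited length is 11892 bases, 2.90 times its longest GENCODE M21 transcript of 4102 bases, and for Pcsk2 it is 7910 against 4723 bases. For Pcsk1 it is shorter than the longest transcript, at 3241 against 5040 bases. Per kilobase of the longest transcript, Pam averaged 18.4, level with Chgb at 18.4, and was above Chgb in 2 of 6 libraries (exact test, adjusted p = 0.531). On that scale Pcsk2 averaged 81.7 and stood above Chga in 5 of 6 libraries (exact test, adjusted p = 0.211). Scg2 was above Scg3 in 6 of 6 libraries (1.21-fold, exact test, adjusted p = 0.0402), and 7 of the 9 neighbouring pairs passed. Pcsk2 was then 13.7-fold above Pcsk1 and Cpe 26.2-fold above Pam. Of the 10 genes, 2 share exon bases with another gene. Pcsk2 shares 260 and 99 bases with the antisense genes Pcsk2os1 and Pcsk2os2, which had 92 to 308 and 1 to 17 counts per library, and no source used here says whether counting used strand. Pam shares 188 bases on the same strand with B230216N24Rik, which had 188 to 777 counts per library. None of the 10 had a near-identical copy elsewhere among the transcripts.

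The genes also differed in how far the libraries spread around their mean. Within-gene levels are given from here as TMM-scaled CPM, and spread as the SD of log2 CPM over the 6 libraries, set beside the 500 tested genes nearest in mean level. Scg5 had an SD of 0.10, and only 2.4% of the genes of similar level had a smaller one. Chgb followed with 0.12 (7.4%), then Scg2 with 0.15 (19.4%), Cpe with 0.16 (21%), Pcsk2 with 0.18 (26.4%) and Chga with 0.22 (35.2%). Scg3 with 0.30 (60.6%) and Pcsk1 with 0.47 (80.2%) lay above the median of their neighbours. Vgf, a low gene, had an SD of 0.32, and 32.6% of genes of its level had a smaller one. Pam stood apart with an SD of 1.01, larger than that of 98.8% of genes of similar level, and its highest library was 5.51 times its lowest. Without male A the SD was 0.04 for Pcsk2 and 0.15 for Vgf, and without male D it was 0.0985 for Scg2. Without male A and male C it was 0.0505 for Pcsk2, 0.166 for Vgf and 0.0909 for Cpe.

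**Figure D2:**
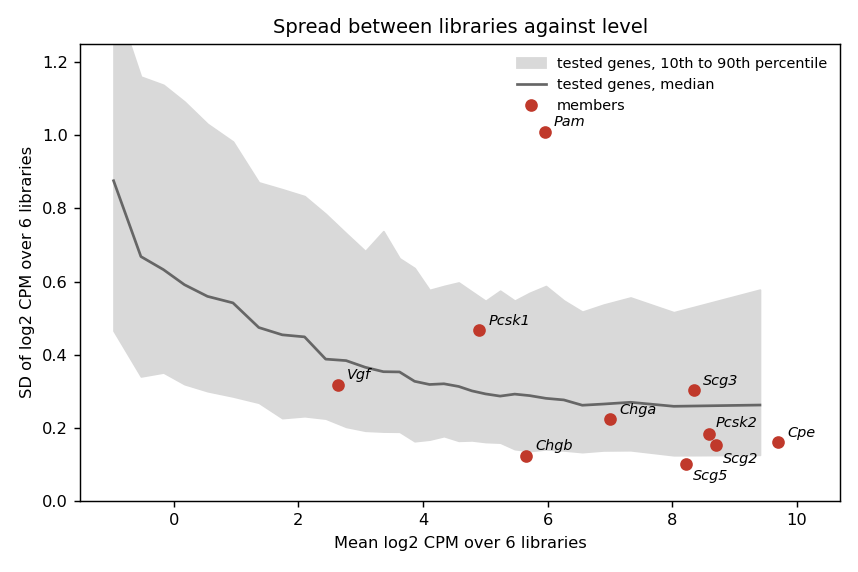
SD of log2 CPM over 6 libraries against mean log2 CPM, with the 10 genes as points and, for all 14958 tested genes in groups of up to 500, the median as a line and the 10th to 90th percentiles as a band. Pam lies far above the band at an SD of 1.01, and Scg5 and Chgb lie below it.

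The deviations of the libraries from each gene's mean differed from gene to gene. In male A, Vgf lay 0.59 and Chga 0.33 above their mean on the log2 scale, whereas Pcsk1 lay at −0.64, Pcsk2 at −0.36 and Scg3 at −0.32. In male D, Scg3 lay 0.45 and Scg2 0.25 above. Female B and male C shared a high Pcsk1, at 0.52 and 0.50, and had opposite deviations of Pam, at 1.34 and −1.03. The likeness of 2 genes was measured as the root mean square (RMS) difference between their centred log2 profiles over 6 libraries. Chgb and Scg2 were the closest pair at 0.08, followed by Chgb and Scg5 at 0.11 and Cpe and Scg5 at 0.13, which are genes of low spread. Pam was 0.84 or more from every other member. Libraries share a protocol and a sort, so these values are a description.

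**Figure D3:**
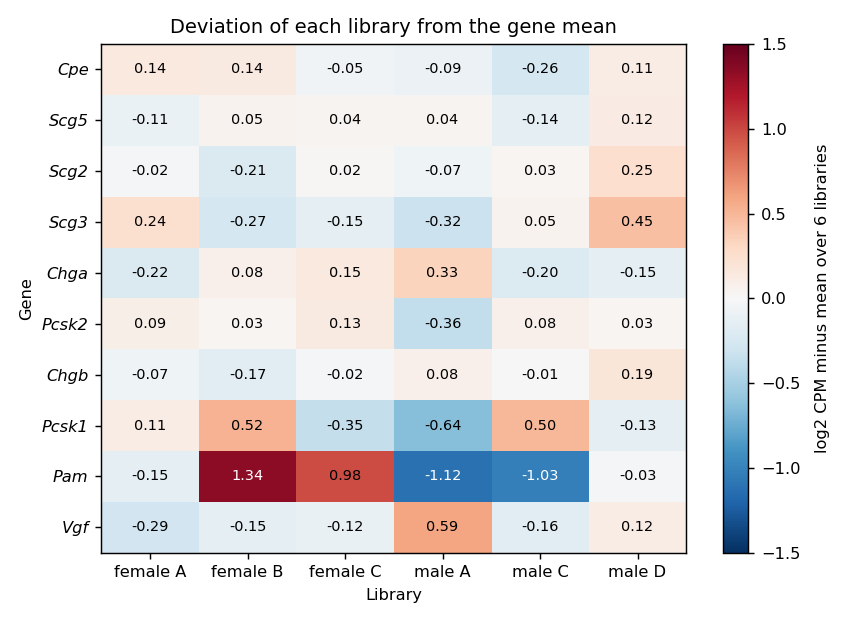
Log2 CPM of each gene in each library minus the gene's mean over 6 libraries, printed in each cell, with genes in order of level from top to bottom and red for above and blue for below the mean. Pam shows the widest deviations, from 1.34 in female B to −1.12 in male A, and Scg5 runs from −0.14 to 0.12.

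Over 10473 genes with a mean of at least 5 CPM, the profiles most like each member were found by the same measure. Chga was nearest to R3hdm4 (RMS 0.02) and to Nagk, N-acetylglucosamine kinase (0.04). Scg3 was nearest to Ppp3cc, a catalytic subunit of calcineurin (0.03), and Grm7, a metabotropic glutamate receptor (0.03). Pcsk2 was nearest to Srp72, a subunit of the signal recognition particle (0.04), and Bace1, the beta-secretase (0.04), which were also low in male A. The nearest to Pcsk1 were Sh3gl2, an endophilin (0.11), and Calml4 (0.16), and the nearest to Vgf were Smdt1 (0.06) and Rbks (0.06). Chgb was nearest to Cep164 and Cnih2, Scg2 to Epb41l4a and Nrxn2, Scg5 to Coq2 and Mrpl20, and Cpe to Eif4e and 2610301B20Rik, all within 0.06. For Pam, whose median distance to all genes was 0.96, the nearest were Hnrnpa0, an RNA-binding protein gene (0.11), and Arid1b, a chromatin remodelling subunit gene (0.13). Hnrnpa0 stood at 111, 274 and 255 CPM in female A, B and C and at 55.0, 57.4 and 136 CPM in male A, C and D, the same order of libraries as Pam. Nearness over 6 libraries is a description and carries no test.

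The labels set up a comparison of female with male embryos. None of the 10 genes passed the threshold (edgeR quasi-likelihood F-test, Benjamini-Hochberg adjusted p under 0.05), 1 had an unadjusted p under 0.05, and DESeq2 also called 0. The edgeR test called 4 of all 14958 genes (0.0267%), and the unadjusted p was under 0.05 for 661 (4.42%). Of the 10 log2 changes, 4 were positive and 6 negative, with a median of −0.01, against −0.00 over all tested genes. The values for the granins were small. Chga averaged 129.5 ± 16.9 CPM in female and 129.8 ± 27.8 CPM in male libraries (SD, n = 3 each), with a log2 change of −0.00 ± 0.22 (SE). Chgb averaged 47.4 ± 2.57 CPM in female and 53.3 ± 3.66 CPM in male libraries (log2 change −0.17 ± 0.18, edgeR adjusted p = 0.972), and was lower in 3 of 3 female libraries. Of all genes 8.06% did not overlap between the sexes, 3.88% with the female libraries lower and 4.18% with them higher, so 1 of 10 genes without overlap is near that background. Vgf had the most negative change, at −0.40 ± 0.29, with 5.40 ± 0.337 CPM in female and 7.15 ± 1.94 CPM in male libraries. Scg2, Scg3 and Scg5 had log2 changes of −0.15, −0.14 and −0.01.

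The convertases and the carboxypeptidase had small positive values. The log2 change was 0.15 ± 0.33 for Pcsk1, 0.16 ± 0.19 for Pcsk2 and 0.15 ± 0.18 for Cpe. Pam had the largest, with 55.9, 157 and 122 CPM in female A, B and C and 28.4, 30.2 and 60.6 CPM in male A, C and D. Both libraries of 1 embryo exceeded every male library, but female A lay below male D, so the sexes overlapped. The means were 112 ± 51.2 CPM in female and 39.7 ± 18.1 CPM in male libraries (SD, n = 3 each), a log2 change of 1.49 ± 0.42 (SE). Its edgeR adjusted p was 0.961, and it was the 1 member with an unadjusted p under 0.05. Without male A and male C none of the 10 was called, and the log2 change of Pam was 0.87 (edgeR adjusted p = 0.983), in a fit that called 0.0312% of genes, and with the number of embryos, 1 or several, as a term it was 0.49 (edgeR adjusted p = 1.00). Of 13 sensory neuron markers, 10 had a positive log2 change and 0 were called, and their summed level was 17455 to 24239.8 CPM in female and 17000.3 to 18308 CPM in male libraries. Their part in the values of Pam was not tested.

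**Figure D4:**
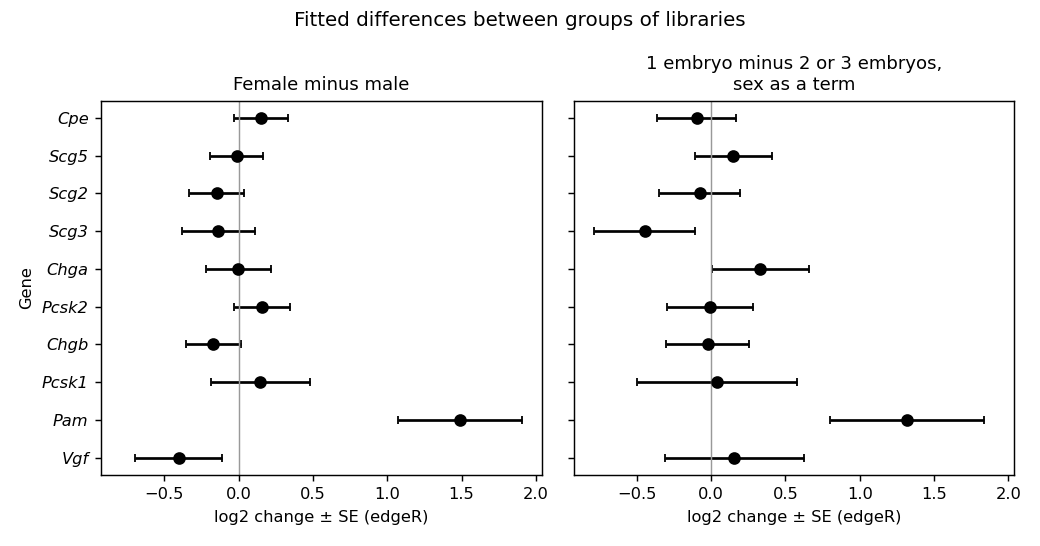
Fitted log2 change ± SE (edgeR) of each gene, female minus male on the left and libraries of 1 embryo minus libraries of 2 or 3 embryos, with sex as a term, on the right. Pam lies at 1.49 and 1.32, and the other 9 genes lie between −0.45 and 0.33.

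The 2 libraries of 1 embryo each were also set against the 4 pooled libraries with sex as a term. Both libraries of 1 embryo are female, so the comparison rests on female B and female C against female A, with male libraries sharing in the estimate of spread. No gene passed the threshold (0 of 14958, 0%, edgeR), 483 had an unadjusted p under 0.05 (3.23%), and DESeq2 called 12, none of them among the 10. Pam averaged 139 ± 24.6 CPM in the libraries of 1 embryo and 43.8 ± 16.8 CPM in the pooled libraries (SD, n = 2 and n = 4), and these groups did not overlap. Its log2 change was 1.32 ± 0.52 (SE) with an edgeR adjusted p of 1.00. It was the 1 member with an unadjusted p under 0.05, which 1.39% of all genes reached in that direction. Of all genes 21.6% did not overlap between these groups, 11.3% with the libraries of 1 embryo higher, and 1 of the 10 members did not. In fits without male A and male C, or of the 3 female libraries alone, the log2 change of Pam was 1.31, with adjusted p of 0.0214 and 0.0244 (edgeR). In those fits 139 of 16033 genes (0.867%) and 136 of 15795 genes (0.861%) were called, and Pam was the 1 member among them. Both set 2 libraries of 1 embryo against female A alone, and they assume that this lone library varies as the others do.

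Of the other members, Scg3 averaged 282 ± 16.2 CPM in the libraries of 1 embryo and 357 ± 77.5 CPM in the pooled libraries (log2 change −0.45 ± 0.34). Chga averaged 139 ± 4.94 CPM in the libraries of 1 embryo and 124.9 ± 24.6 CPM in the pooled libraries (log2 change 0.33 ± 0.32). The other 7 had log2 changes between −0.10 and 0.16. Values of other gene groups are given for the same division, and 0 genes of either group were called. Summed sensory neuron markers were 21568 to 24239.8 CPM in the libraries of 1 embryo and 17000.3 to 18308 CPM in the pooled libraries, with 12 of 13 markers positive. Among the 13, 6 were higher without overlap, beside 11.3% of all genes, and 0 were lower without overlap. None had an unadjusted p under 0.05 (edgeR). Immediate early genes, which are induced quickly when cells are stimulated, had 15 of 16 tested members positive, with a median log2 change of 0.65 against −0.00 over all tested genes. Of these 16, 3 had an unadjusted p under 0.05 (3.23% of all genes did). In the fits without male A and male C or of the females alone, which called 0.867% and 0.861% of all genes, 2 of the 16 were called, Fos and Egr1 (edgeR). Fos, the founding member, stood at 684 and 499.7 CPM in female B and C and at 212, 483, 179 and 237 CPM in female A and male A, C and D. Male A, where Fos was high, had the lowest Pam. The part of these RNAs in the level of Pam was not tested. The libraries of 1 embryo were also recorded separately from the pooled libraries. The number of embryos, the separate record and the individual embryos therefore cannot be told apart.

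The rest of the secretory route was described from lists of 88 genes in all, of which 79 were tested. None of the 79 passed the threshold in either comparison (edgeR), and DESeq2 also called 0 in both. An unadjusted p under 0.05 was found for 1 of the 79 in female against male libraries, beside 4.42% of all genes, and for 3 of the 79 in libraries of 1 embryo against pooled libraries, beside 3.23% of all genes. Among relatives of the granins, Resp18, a protein of the granule lumen, had 69.8 ± 17.0 RPKM (SD, n = 6), close to Chga. Ptprn, a granule membrane protein, had 10.5 ± 1.47 RPKM. Pcsk1n, whose product proSAAS inhibits PCSK1, had 6.11 ± 2.46 RPKM, and it was lowest in the libraries of 1 embryo. It stood at 5.86 and 8.21 CPM in female B and C and at 17.6, 19.8, 13.9 and 15.1 CPM in female A and male A, C and D, without overlap (log2 change −1.32 ± 0.39, edgeR adjusted p = 1.00). It was the 1 of 5 genes of this list without overlap, beside 21.6% of all genes (10.3% with the libraries of 1 embryo lower), which is near that background.

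Other proprotein convertases, which act in the Golgi or at the cell surface, were below Pcsk2. The highest were Mbtps1, the site-1 protease, at 12.8 ± 2.62 RPKM, Pcsk7 at 6.25 ± 0.805 RPKM and Pcsk5 at 1.70 ± 0.101 RPKM. Among other trimming, capping and cleaving enzymes the lysosomal cathepsins Ctsl at 364 ± 21.7 RPKM and Ctsb at 315 ± 25.2 RPKM were near Cpe in level, and Prep, prolyl endopeptidase, had 22.0 ± 1.48 RPKM. Genes that supply copper and ascorbate, the cofactors of amidation, were measured beside Pam, whose 6.36 RPKM on the deposited length is 18.4 per kilobase of its longest transcript. Atox1, a copper chaperone, had 314 ± 44.6 RPKM, Slc31a1, a copper importer, 27.9 ± 2.61 RPKM, and Cyb561, the vesicle cytochrome that passes on electrons from ascorbate, 18.7 ± 1.79 RPKM. The ascorbate transporter Slc23a2 averaged 18.1 CPM in the libraries of 1 embryo and 26.9 CPM in the pooled libraries (log2 change −0.94 ± 0.32, edgeR adjusted p = 1.00), opposite in sign to Pam. Of the 5 tested genes of the copper and ascorbate list, 4 were negative and 1 positive in that comparison. The groups did not overlap for 2 of the 5, both lower, beside 10.3% of all genes without overlap and lower. Of the sorting and maturation list, the accessory subunits of the vesicle proton pump Atp6ap1 and Atp6ap2 were highest at 349.6 ± 17.9 and 138 ± 32.5 RPKM, followed by Rab2a at 57.1 ± 12.3 RPKM. Of the transport and release list, Syt4, a vesicle synaptotagmin, had 376 ± 147 RPKM, Rab3a 168 ± 44.1 RPKM, and the vesicle motor Kif1a 62.2 ± 10.5 RPKM. Genes of the peptide and neurotrophin cargo list ranged widely in level. Of 19 such genes, 13 averaged at least 1 CPM and 6 under 1 CPM. Calca, which encodes CGRP, had 1060.9 ± 309 RPKM, Gal, which encodes galanin, 544 ± 106 RPKM, and Calcb 129 ± 49.0 RPKM, whereas Sst and Vip averaged under 1 CPM.

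**Figure D5:**
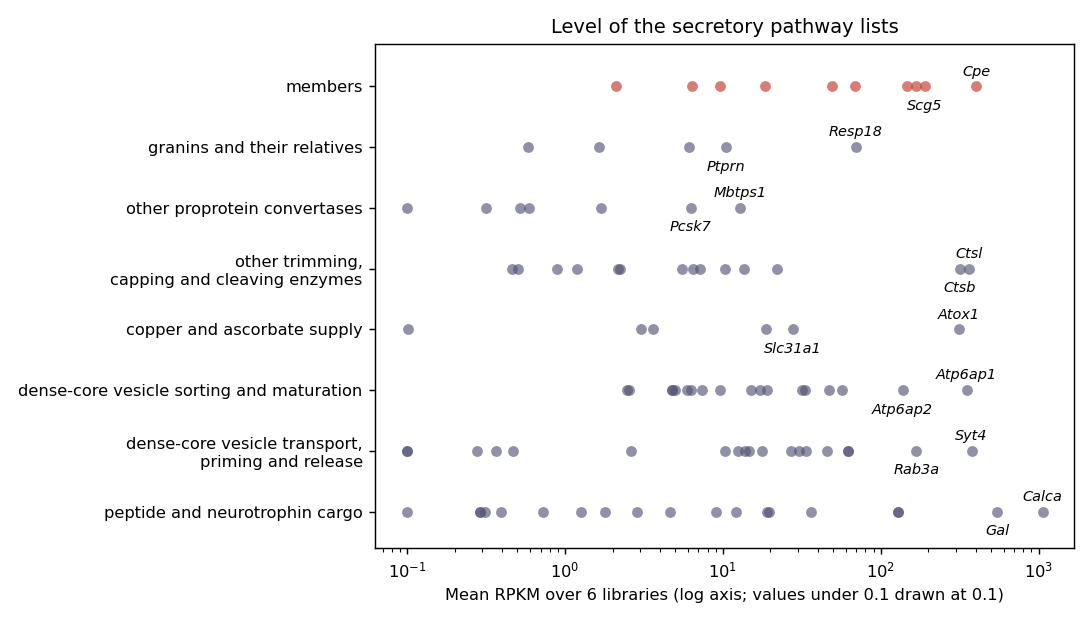
Mean RPKM over 6 libraries of the 10 genes (top row) and of the genes of each secretory pathway list, 1 dot per gene on a log axis, with the 2 highest genes of each row named and values under 0.1 drawn at 0.1. Calca and Gal lie above Cpe, and the other proprotein convertases lie below Pcsk2 at 48.8 RPKM.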

How the data were processed

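RNA of sorted cells from 6 libraries was analysed at gene level, with sex, replicate letter and pool size from the labels. Per the labels, cDNA was made and amplified by the SMARTer Ultra Low chemistry. Alignment by Subread and counting by featureCounts 1.4.5 on GRCm38.p2 are named in the submitters' processing notes. No source used here states the strand or multi-mapping settings. Per library, the authors deposited raw counts per gene. The deposited CPM are the authors' counts scaled by the library total, and the deposited RPKM are the authors' CPM per kilobase of the deposited length. Both recomputed with a largest difference of 4.55e-11 and 6.37e-12 (tolerance 1e-06). Only counts and lengths were used further.

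Total counts were 17861500 to 29330101 per library. Contrasts used the edgeR 4.0.16 quasi-likelihood F-test in R 4.3.3 with TMM factors (0.922 to 1.08), filterByExpr (14958 genes) and Benjamini-Hochberg adjusted p under 0.05. The common dispersion was 0.0966. Log2 CPM used a prior count of 2. Alternatives were RLE size factors, no filter, DESeq2 1.42.0, each library left out, a replicate block, pool size as a term, females only, plain totals and TPM. Longest transcript lengths, and fits leaving out male A with male C, were added after the data were seen. Copies were searched with blastn 2.17.0 (at least 95% identity over 150 bases). On simulated counts with known changes, the female against male test recovered 14.9% of 2-fold, 73.9% of 4-fold and 92.2% of 8-fold changes. For libraries of 1 embryo against pooled libraries these shares were 4.23%, 26.7% and 76.8%. Most 2-fold changes were thus missed, and a gene that was not called may still differ. The simulated spread was estimated with sex and number of embryos as terms, and no difference by number of embryos was simulated. The female against male fit has sex alone, so its shares may be too high for these data. Protein sequences were not analysed here.

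Named genes were the 10 members, the 3 highest genes by RPKM of each pathway list and any past the threshold, the 2 highest genes of each marker list and markers near 0, and the 2 nearest profiles of each member, and those that bear on a result are printed. Other genes named were chosen after their values were seen. Members and lists were chosen with earlier results of these data known. Replicate letters do not mark shared litters in the labels and were not treated as pairs.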

Additional observations from a re-analysis of the deposited data

Results flagged for a closer look

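Each of the 10 genes was examined for a library far from the others among the 6. In 1 of them, Pcsk2, male A stood at 298 CPM (297.783), and the next lowest library, female B, stood at 391.8 CPM. The gap was 0.763 of the whole range of the 6 libraries, above the 95% critical value of Dixon's test. Such a test flags about 1 in 20 groups by chance, and 10 genes were examined. Male A also had the highest summed levels of glial and of fibroblast markers, though not of every marker. The part of these in the level of Pcsk2 was not tested.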

How the results depend on the processing

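Counts of called genes depended on the fit. Female against male libraries gave 4 calls, against 14 without the low-count filter, 12 with DESeq2, 77 with a replicate block (1 residual degree of freedom), 0 with the number of embryos as a term, and 0 to 5 when 1 library was left out, with 0 without female A. No member was called in any of these. The replicate block used letters that 2 pairs share, with correlations of deviations of −0.0777 for A and 0.0521 for C. Under it Pam had a log2 change of 1.496 (edgeR adjusted p = 0.105). Libraries of 1 embryo against pooled libraries gave 0 calls, against 3 without the filter, 12 with DESeq2, 139 without male A and male C and 136 in females only, the last 2 with 1 member, Pam (edgeR adjusted p = 0.0214 and 0.0244). Without female A that comparison could not be fitted. Across alternatives the log2 change of Pam was 0.49 to 1.93 for female against male libraries (adjusted p of 0.0986 to 1.00) and 1.13 to 1.49 for 1 embryo against pooled libraries.

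Members that changed sign had small, uncalled values. Female minus male, leaving out 1 library at a time gave Chga −0.099 to 0.186 (positive without female A, 0.099, or male A), Scg3 −0.308 to 0.0783 (positive without male D), Scg5 −0.0825 to 0.0472 (positive without female A, 0.0348, male A, 0.0014, or male D) and Pcsk1 −0.0904 to 0.502 (negative without female B or male A, −0.0883). Without male A and male C, Chga was 0.153 and Cpe −0.04. With the block, Scg2 was 0.017, Scg3 0.179, Scg5 0.0177 and Pcsk1 −0.0564, and with the number of embryos as a term Scg3 was 0.146. For 1 embryo minus pooled, Pcsk2 was 0.0086 with RLE size factors, and leaving out 1 library gave Chgb −0.102 to 0.0541, Scg2 −0.194 to 0.0357, Pcsk1 −0.461 to 0.415 and Pcsk2 −0.0591 to 0.0457. These were opposite to the fit of all libraries without female B, and for Pcsk2 also without male D (0.0037). The causes were not tested.

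The summed level of 1059.5 RPKM was 2969 as TPM and 1144 per kilobase of the longest transcript, since these scales differ in their units and lengths. Of the 9 neighbouring pairs 6 passed with 6 libraries and 0 with any library left out, where the exact test cannot reach the threshold. The planned protein features were not run. Depth limits Vgf most, with 814 counts in all.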
